A study of Homo sapiens with 8 samples.

Results

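The set described here holds the open chromatin regions of U2OS cells whose GRCh38 sequence carries 2 or more copies of the vertebrate telomere hexamer TTAGGG, on either strand and adjacent or not. Peaks of 8 FAIRE-seq libraries on chromosomes 1 to 22 and X were joined wherever they overlapped by 1 bp, which gave 52105 regions, of which 31829 had a peak in 2 or more libraries. Of these, 557 regions (1.75%) held 2 or more copies, 4109 held 1 copy and 27163 held 0. Among the 557, 477 regions had 2 copies, 65 had 3, 13 had 4, 1 had 5 and 1 had 7. The copies were end to end in 7 regions (tandem), and in the other 550 they were scattered. Among the scattered regions, 64 had copies close together on 1 strand, 281 had copies on 1 strand farther apart, and 205 had their copies on opposite strands. The close class took in EEF2KMT, at 47 bp, and the farther class ENSG00000286895, at 67 bp, so the limit lay between these spacings.

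FAIRE-seq, in which DNA that is free of crosslinked protein is recovered by phenol-chloroform extraction and sequenced, was done on U2OS, an osteosarcoma cell line that keeps its telomeres by recombination and not by telomerase. The 8 libraries came from 2 WT clones (WT_4 and WT_5) and 2 clones with ZBTB48 knocked out (KO_C5 and KO_D2), each once untreated and once after 250 U/ml interferon-γ (IFNγ) for 24 h by the labels (the study's text also gives a longer time for these profiles). Each line is 1 clone, so a difference between the genotypes is a difference between 2 clones and 2 clones, and differences between clones cannot be told apart from the knockout. The study asked whether ZBTB48 opens chromatin at its binding sites. No ZBTB48 binding data were used here, and regions were chosen by the hexamer alone. The comparison of WT with KO, with and without IFNγ, therefore describes regions that carry the hexamer and cannot answer that question.

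Mammalian telomeres consist of long arrays of TTAGGG bound by the shelterin proteins, and short arrays of the same repeat also lie inside chromosomes as interstitial telomeric sequences. ZBTB48, also known as TZAP, is a zinc finger protein that binds this repeat at telomeres through its zinc fingers and also binds the promoters of a small number of genes, where it acts as a transcriptional activator. Its known promoter targets include CIITA, the master regulator of MHC class II genes, and MTFP1, a mitochondrial fission protein.

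The tandem pairs are shown first, since an end-to-end pair is the closest approach to telomeric DNA in the set. The windows are printed 5′ to 3′ on the strand that reads TTAGGG, with every complete copy in capitals, and those that touch an annotated UTR are kept to 30 bases.
CIAO3: ggggtcgggTTAGGGTTAGGGatgtgtggg
RSPRY1: cggctgctgTTAGGGTTAGGGccaggcctg
RANGRF: gggttggacTTAGGGTTAGGGtctatgtcg
LINC00229: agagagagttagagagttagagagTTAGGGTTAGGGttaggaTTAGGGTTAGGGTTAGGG
INTS1: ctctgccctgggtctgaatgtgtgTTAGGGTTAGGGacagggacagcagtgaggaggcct
ENSG00000290065: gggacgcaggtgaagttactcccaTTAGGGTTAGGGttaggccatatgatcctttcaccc
ENSG00000261334: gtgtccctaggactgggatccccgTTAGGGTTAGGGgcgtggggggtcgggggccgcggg

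These windows lie at chr16:740562-740591 (plus strand), chr16:57185720-57185749 (minus), chr17:8288502-8288531 (minus), chr22:44626500-44626559 (plus), chr7:1469038-1469097 (minus), chr7:42888867-42888926 (minus) and chr9:129482450-129482509 (plus), and each name is that of the nearest annotated start site. The pairs of CIAO3, RSPRY1 and RANGRF are in annotated UTR sequence, that of ENSG00000261334 is in a non-coding exon, and the other 3 are intergenic. Each region held a run of only 2 exact copies. In 6 of the windows no further exact copy followed. In ENSG00000290065 the pair continued into a further unit with 1 mismatch. The window of LINC00229 runs past the end of its region at position 44626540 into a further run of 3 copies, so that this region stopped at the edge of a short interstitial array.

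Another region stopped at the edge of a much longer array. It lies at chr2:113603440-113604477, 2179 bp from a start site of the pseudogene DDX11L2, close to where ancestral chromosomes are known to have fused end to end to form human chromosome 2. It was chosen after its sequence had been seen. The window at chr2:113603290-113603499 on the minus strand opens with 60 bases of the region and goes on with 150 bases outside it.
DDX11L2: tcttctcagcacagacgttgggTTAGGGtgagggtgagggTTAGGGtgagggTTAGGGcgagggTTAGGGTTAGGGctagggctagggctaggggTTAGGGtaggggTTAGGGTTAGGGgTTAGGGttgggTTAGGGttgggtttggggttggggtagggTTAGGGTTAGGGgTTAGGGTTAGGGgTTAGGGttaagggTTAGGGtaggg

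The region itself held 3 copies, at its very edge, and the 1 kb beyond that edge held 51 copies, of which 41 were on the minus strand and 10 on the plus strand. No other region of the set had more than 6 copies in the 1 kb on a side, and 230 of the 557 had 0 on both sides. With 1 mismatch allowed in each unit, the longest run inside the DDX11L2 region was 6 units. Across the set, 16 regions (2.87%) held such a degenerate run of 2 or more units and 2 held 3 or more, against 51 (1.24%) and 2 of the 4109 regions with 1 copy. The DDX11L2 region was open in all 8 libraries. Its percentile of −log10 p within the list, where 100 is the strongest peak, was 56.4 and 67.2 in untreated WT_4 and WT_5, 68.3 and 60.2 in untreated KO_C5 and KO_D2, 53.5 and 74.1 in the IFNγ-treated WT clones, and 67.7 and 72.5 in the IFNγ-treated KO clones. These values overlapped between the genotypes under both conditions.

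Copies that were close but not adjacent are shown for 2 regions. An intergenic region at chr5:110916366-110916710, 8082 bp from the pseudogene ENSG00000270779, held 4 copies on 1 strand, the closest 20 bp apart, and the promoter region of SYT5, which encodes a synaptotagmin of secretory vesicles, held 3 copies in an intron, the closest 24 bp apart, and 1 in coding sequence. They are shown because other letters separate the copies. The windows are chr5:110916583-110916682 and chr19:55174091-55174294, both on the plus strand.
ENSG00000270779: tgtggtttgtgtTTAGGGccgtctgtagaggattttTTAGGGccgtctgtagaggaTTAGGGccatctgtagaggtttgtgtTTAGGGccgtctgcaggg
SYT5: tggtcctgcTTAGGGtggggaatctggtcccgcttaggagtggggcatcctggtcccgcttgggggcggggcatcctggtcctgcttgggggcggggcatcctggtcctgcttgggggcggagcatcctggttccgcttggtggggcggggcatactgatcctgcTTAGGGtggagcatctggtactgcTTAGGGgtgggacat

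Another source of shared copies was the FAM86 genes, a family of methyltransferase-related genes and pseudogenes spread over several chromosomes by duplication. When the regions were aligned with each other, 36 of the 557 (6.46%) fell into 8 families that matched at 80% identity or more over at least 200 bp. There were 2 families of 11. One took in the regions of WARS2, MMRN2, SLC29A2, PKM, SNUPN, TNFRSF12A and TCF25 among others, with 2 copies in all but TNFRSF12A, and 6 of its 11 regions were open in all 8 libraries. The FAM86 family held the other 11, among them the region at the start of EEF2KMT, which encodes the lysine methyltransferase of elongation factor eEF2 and is the active FAM86 gene, with 5 copies. In 6 of the 11 a pair of copies lay 67 or 68 bp apart, and 4 of those windows are shown because the letters around both hexamers are shared.
FAM86C2P: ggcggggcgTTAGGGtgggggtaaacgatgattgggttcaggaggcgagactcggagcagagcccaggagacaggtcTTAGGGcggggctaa
LINC02614: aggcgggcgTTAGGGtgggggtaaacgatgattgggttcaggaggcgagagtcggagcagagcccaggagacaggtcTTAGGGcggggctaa
ENSG00000286895: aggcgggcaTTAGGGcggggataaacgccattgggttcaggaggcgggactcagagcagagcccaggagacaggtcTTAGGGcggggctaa
EEF2KMT: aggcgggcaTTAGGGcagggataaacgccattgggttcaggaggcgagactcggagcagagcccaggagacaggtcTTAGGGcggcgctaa

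They lie at chr11:67805708-67805799 (plus strand), chr3:125916138-125916229 (minus), chr12:8243340-8243430 (plus) and chr16:5098121-5098211 (plus). The FAM86C2P and LINC02614 windows, both of 92 bases, were 95.7% identical, and those of ENSG00000286895 and EEF2KMT, both of 91 bases, were 95.6% identical. Since the whole sequence is shared, these regions are not independent members of the set. All 11 were open in all 8 libraries and ranked high. Their median percentile was 83.6 and 89.6 in untreated WT_4 and WT_5, 83.8 and 82.4 in untreated KO_C5 and KO_D2, 79.0 and 88.6 in the IFNγ-treated WT clones and 89.6 and 89.3 in the IFNγ-treated KO clones. Reads that fit several copies of such a family are hard to place, and the authors removed reads of low mapping quality. How far this set the signal of each copy was not tested.

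**Figure D1:**
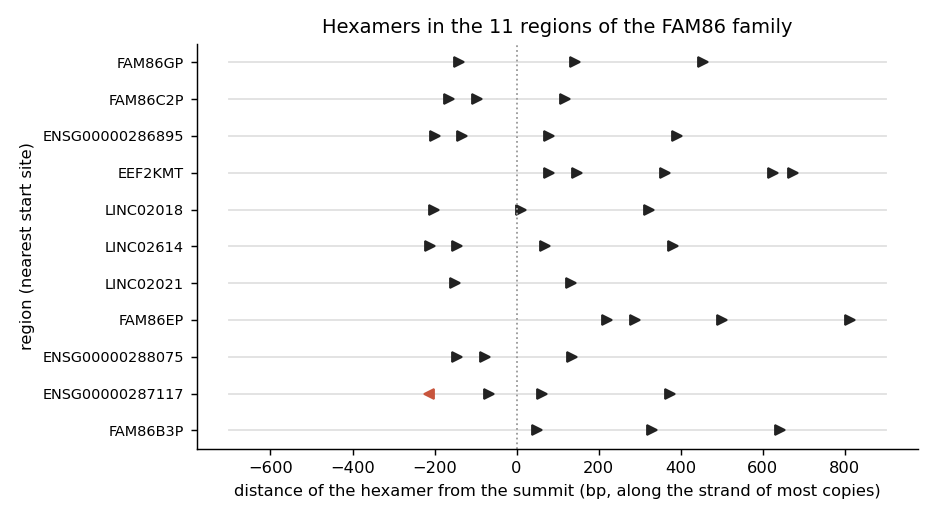
Distance of each telomere hexamer from the summit of the strongest peak, in bp along the strand of most copies, in the 11 regions of the FAM86 family, named by the nearest start site. Triangles that point right are copies on that strand, and the 1 red triangle is on the opposite strand. The same spacings recur from region to region, with 2 to 5 copies each.

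Long arrays of the hexamer were not among the open regions. On chromosomes 1 to 22 and X the reference held 1281 runs of 2 or more adjacent copies. Of the 941 runs of exactly 2 copies, 9 lay in a region of any library and 7 in a region of 2 or more. Of the 340 runs of 3 or more copies, 0 lay in a region of any library. These longer runs had a median distance of 38.9 kb to the nearest region, 241 of them were within 1 Mb of a chromosome end, and 41 were within 1 kb of a region. The authors removed reads of low mapping quality, and the part of this filter in the result was not tested.

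The copies did not gather at chromosome ends either. Of the 557 regions, 16 (2.87%) lay within 1 Mb of a chromosome end, against 1064 of the other 31272 regions (3.40%). The nearest was 41.8 kb from an end, beside the lncRNA ENSG00000289511 on chromosome 21. Of the gene families that fill subtelomeres, DDX11L was the nearest gene for 1 region, the internal one described above, and WASH, FAM110C, FRG2, RPL23AP and OR4F for 0. The share of regions with 2 or more copies ranged from 0.579% on chromosome 20 (6 of 1037) to 2.60% on chromosome 21 (8 of 308).

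Most regions of the set were promoters. A start site lay inside 413 of them and within 1 kb of a further 30, so that 443 (79.5%) counted as promoters, against 55.3% of the other regions, and 396 of these were promoters of protein-coding genes. The remaining 114 split into 45 intronic, 47 intergenic and 22 exonic regions. All 7 tandem regions counted as promoters, 4 by a start site of a protein-coding gene and 3 by that of a lncRNA. Of the 1213 copies, 497 (41.0%) lay in introns, 349 (28.8%) between genes, 218 (18%) in UTRs, 119 (9.81%) in non-coding exons and 30 (2.47%) in coding sequence. At promoters the hexamer read TTAGGG along the gene in 498 copies and against it in 467, which is 51.6% in the sense direction.

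Region length moved with much of this. The median length was 919 bp in the set and 518 bp in the other regions. The share of regions with 2 or more copies went from 0.439% under 500 bp (66 of 15039) to 2.12% from 500 to under 1000 bp, 4.44% from 1000 to under 2000 bp and 9.57% from 2000 bp on (31 of 324). GTGAGT, which the study used as its scrambled control sequence, went in the same way from 3.40% to 20.7%. The set was found in all 8 libraries in 366 of 557 cases (65.7%), against 35.8% of the other regions. Within a length class the gap was smaller, at 13.6% against 8.48% under 500 bp, 57.9% against 51.9% from 500 to under 1000 bp, 86.4% against 81.2% from 1000 to under 2000 bp and 96.8% against 91.5% above. The rule itself asks for 2 libraries, so these shares are a description.

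**Figure D2:**
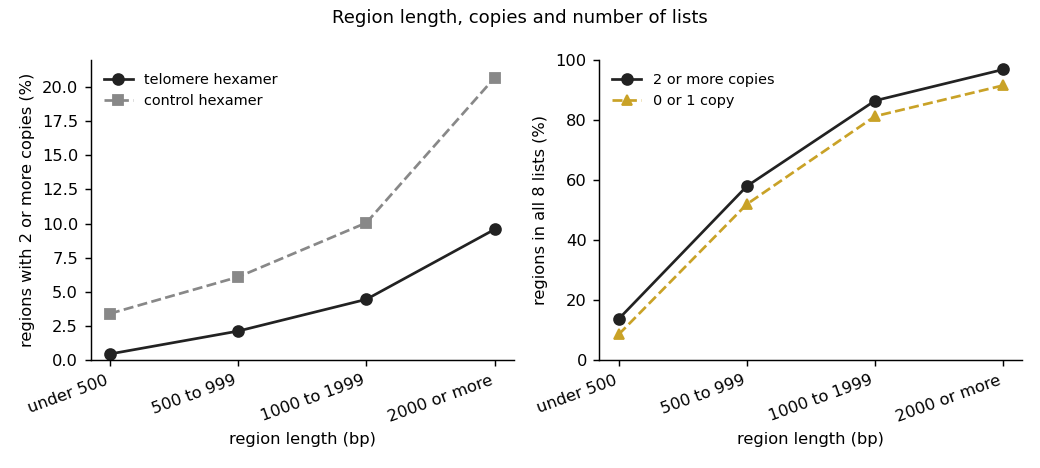
Left, percentage of regions with 2 or more copies of the telomere hexamer (circles) or of the control hexamer (squares) by region length in bp. Right, percentage of regions found in all 8 lists, for regions with 2 or more copies (circles) and with 0 or 1 copy (triangles). Both panels climb with length, and the circles stay 5 to 6 percentage points above the triangles.

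Per base, open chromatin held fewer telomere hexamers than the genome around it. The density was 0.258 copies per kb in regions of 2 or more libraries and 0.371 per kb over chromosomes 1 to 22 and X, whereas the control hexamer was at 0.559 and 0.485 per kb. Over all 31829 regions the telomere hexamer was about level with distance from the summit, at 0.241 copies per kb within 150 bp, 0.297 from 150 to 300 bp, 0.255 from 300 to 500 bp, 0.254 from 500 to 1000 bp and 0.222 beyond. The control hexamer fell from 0.642 within 150 bp to 0.408 beyond 1000 bp. In the set, 408 of the 1213 copies (33.6%) lay within 150 bp of the summit and the median distance was 213 bp. The set was GC-rich, with a median of 64.7% against 61.8% in the other regions.

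Of all 17736 promoter regions, 2.50% belonged to the set, which is the share to set beside the short gene lists here. Of 5 promoter targets of ZBTB48 (CIITA, MTFP1, SNX15, PXMP2 and VWA5A), all had a peak within 1 kb of a start site in at least 1 library, but 0 had a region of the set there. The most copies found at one of them was 1, at CIITA. Of 20 telomere proteins and regulators, 19 had a promoter peak in at least 1 library and 18 in all 8, and only TERT, the catalytic subunit of telomerase, had 0. The promoter of ZBTB48 itself had a peak in all 8 libraries, which says nothing of the knockout, since peaks do not report the protein. The single region of the set among them was the promoter shared by FIZ1 and ZNF524, with 2 copies, where ZNF524 encodes another zinc finger protein that binds the telomere repeat. It ranked at 83.5 and 84.8 in untreated WT_4 and WT_5 and at 69.9 and 69.5 in untreated KO_C5 and KO_D2. After IFNγ it ranked at 81.9 and 91.1 in the WT clones and at 79.3 and 85.2 in the KO clones. The untreated groups did not overlap and the IFNγ-treated groups did. As a check of the cells, 6 of 7 mesenchymal and osteoblast genes had a promoter peak in some library and 4 in all 8, against 2 and 0 of 5 blood genes and 0 of 3 hepatocyte genes. VIM, the intermediate filament protein vimentin, was the 1 marker gene with a region of the set.

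The 7 tandem regions differed widely in strength. RSPRY1, a gene for a RING finger protein that shares its promoter with PSME3IP1, was among the strongest peaks in some clones, with percentiles of 73.3 and 98.3 in untreated WT_4 and WT_5, 60.6 and 84.6 in untreated KO_C5 and KO_D2, 70.8 and 98.0 in the treated WT clones and 95.4 and 97.5 in the treated KO clones. In both conditions the clone WT_4 was far below WT_5, so the genotypes overlapped. CIAO3, a component of the cytosolic machinery that loads iron-sulfur clusters into proteins, was at 84.3 and 80.9 in untreated WT_4 and WT_5, 77.8 and 72.7 in untreated KO_C5 and KO_D2, 85.1 and 82.7 in the treated WT clones and 65.1 and 75.9 in the treated KO clones. Here each WT library was above each KO library, and the mean percentile was 10.4 points higher in WT. The pair itself lay away from the summit, at -488 and -482 bp, near the edge of the region. Every KO library also had more local background at CIAO3 (1.39 fragments or more) than any WT library (1.32 or less). The heights at the summit overlapped, from 55 up to 78 in KO against 69 up to 103 in WT. The part of local background in this order was not tested.

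RANGRF, which encodes a factor that releases guanine nucleotide from the GTPase Ran, was at 46.6 and 70.2 in untreated WT_4 and WT_5, 49.1 and 38.4 in untreated KO_C5 and KO_D2, 51.4 and 72.0 in the treated WT clones and 67.5 and 56.0 in the treated KO clones, with overlap between the genotypes. ENSG00000261334, a lncRNA next to LINC00963, was weak in every library, between 13.2 in untreated KO_D2 and 40.1 in untreated WT_4. The other 3 tandem regions were open in only some libraries.

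LINC00229 had no peak in any untreated library and was at 56.5 in IFNγ-treated WT_5, 36.4 in treated KO_C5 and 42.2 in treated KO_D2, with no peak in treated WT_4. The INTS1 region lay 160 bp from an annotated transcript start of that gene, which encodes a subunit of the Integrator complex. This complex processes small nuclear RNAs. The INTS1 region was at 33.2 and 19.6 in untreated WT_4 and WT_5 and 14.7 and 36.3 in the treated WT clones. It was at 2.8 in treated KO_D2, with no peak in the other KO libraries. ENSG00000290065 was at 18.7 and 8.4 in untreated WT_4 and WT_5 and 1.4 in treated WT_4, with no peak in the other 5 libraries. These were small peaks. The height at the summit, in fragments, was 9 to 14 for INTS1 in the WT libraries and 17 in treated KO_D2, where the local background was 4.67 fragments against 0.74 to 1.23 in WT, and it was 6 to 11 for ENSG00000290065.

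**Figure D3:**
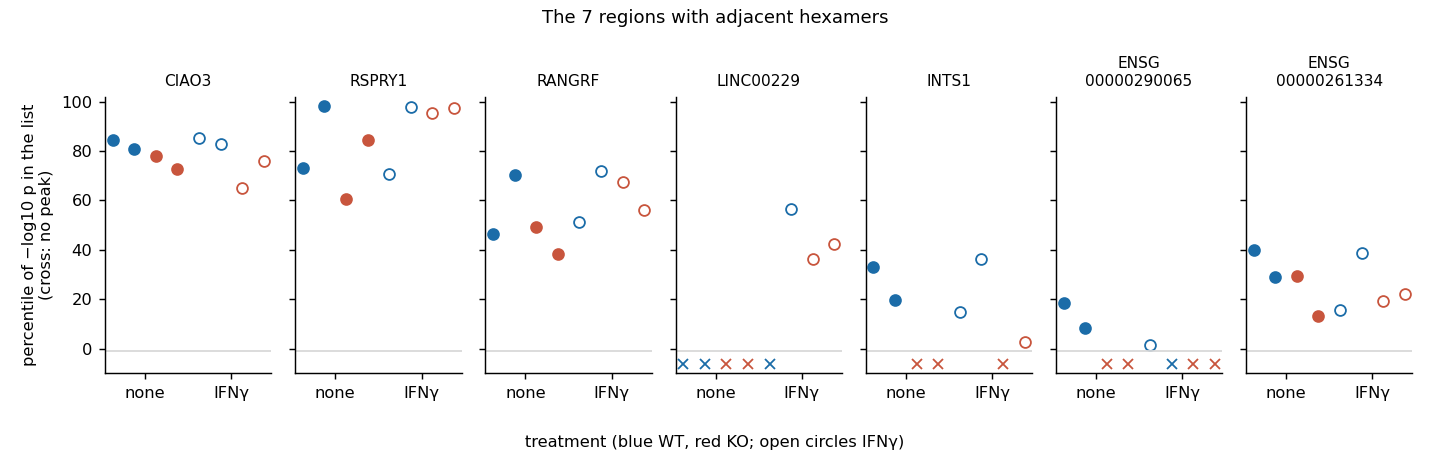
Percentile of −log10 p of the strongest peak in each library's list (vertical axis) for the 7 regions with adjacent hexamers, in untreated (filled) and IFNγ-treated (open) libraries of WT (blue) and KO (red) clones, with WT_4, WT_5, KO_C5 and KO_D2 from left to right under each treatment; a cross marks a library with no peak. Of the 4 regions open in all 8 libraries, CIAO3 alone has each WT library above each KO library.

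In all, 15 regions held 4 or more copies, and 11 of them contained a start site. The region with 7 copies is intergenic, at chr8:143219600-143220673 and 6382 bp from GPIHBP1, which encodes the capillary anchor of lipoprotein lipase. Of its 7 copies, 6 were on 1 strand and their closest spacing was 41 bp. It was at 32.3 and 57.0 in untreated WT_4 and WT_5, 27.7 and 27.1 in untreated KO_C5 and KO_D2, 48.9 and 61.8 in the treated WT clones and 51.9 and 56.7 in the treated KO clones. Both untreated KO libraries were below both untreated WT libraries and the treated groups overlapped.

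EEF2KMT, with 5 copies, was at 80.8 and 92.2 in untreated WT_4 and WT_5, 63.6 and 92.9 in untreated KO_C5 and KO_D2, 79.0 and 89.6 in the treated WT clones and 90.1 and 95.4 in the treated KO clones, so KO_C5 alone was low without IFNγ. Among the regions with 4 copies, CFL1, which encodes the actin-severing protein cofilin and shares its promoter with the endonuclease gene MUS81, ranged from 96.1 to 98.9 over the 8 libraries. ENSG00000286895 of the FAM86 family ranged from 97.5 to 99.5. CORO1C, an actin-binding coronin, ranged from 83.0 to 90.3. TNFRSF12A, the receptor of the cytokine TWEAK, ranged from 87.8 to 94.0, and EIF3A, the largest subunit of a translation initiation factor, from 87.4 to 96.3. Of these, EIF3A was higher in every WT library than in every KO library, at 93.3 or above against 92.7 or below. LINC02614 (80.8 to 97.9), FAM86EP (70 to 89.3) and ENSG00000287117 (72.4 to 85.7) were the other 4-copy regions among the 10 described first, and in these 3 the genotypes overlapped. The 13 regions with 4 copies tie, and these 8 were taken by their mean percentile, which favours strong peaks. Of the 5 left out, C10orf143 (51.8 to 80.3) and R3HDM1 (35.4 to 82.8) contained a start site and were open in all 8 libraries, as was the exonic UNC5CL region (57.1 to 79.1). SYT5 had a peak in 6 libraries, between 12.9 and 66.9, and ENSG00000270779 in 2, at 22.3 in untreated KO_C5 and 8.0 in treated KO_D2.

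The number of regions of the set with a peak was 451 and 514 in untreated WT_4 and WT_5, 431 and 429 in untreated KO_C5 and KO_D2, 455 and 528 in the treated WT clones and 498 and 500 in the treated KO clones. Without IFNγ both KO libraries were below both WT libraries, at 77.2 ± 0.254% against 86.6 ± 8.0% (SD, n = 2 each), a difference of 9.43 percentage points. The exact two-sided permutation test gave p = 0.333 (adjusted over the 7 tests made, 0.583), which is the smallest p that 2 against 2 libraries allow. The other regions differed more, at 50.8 ± 2.01% in KO and 68.3 ± 17.4% in WT. The lead of the set over the other regions was therefore 8.02 points smaller in WT than in KO (exact permutation p = 0.333, adjusted 0.583). The number of peaks called per library moved with these shares. It was 21715 and 29567 in untreated WT_4 and WT_5 and 19255 and 16730 in untreated KO_C5 and KO_D2. When each list was shortened to its 16730 strongest peaks, the difference in the set was 0.849 points (exact permutation p = 0.667) and the lead differed by -1.93 points (exact permutation p = 0.333). In windows of 150 bp either side of each summit the lead differed by -0.616 points. The rule counts libraries of any genotype but rests on the same peaks, so these tests compare groups within regions already chosen by their peaks.

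**Figure D4:**
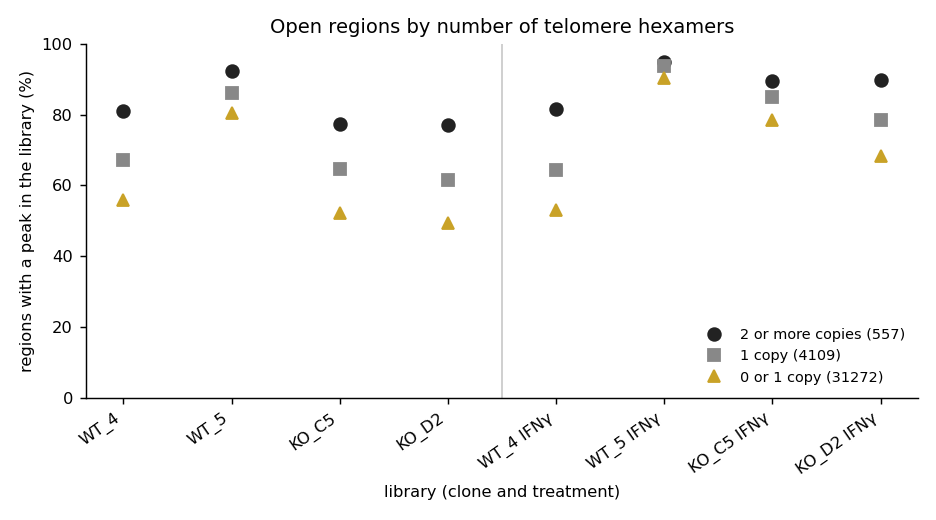
Percentage of regions with a peak in each of the 8 libraries, for the 557 regions with 2 or more copies (circles), the 4109 with 1 copy (squares) and the 31272 with 0 or 1 copy (triangles), by clone and treatment. The circles lie between 77.0% and 94.8% and the triangles between 49.4% and 90.4%, and both are highest in clone WT_5.

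After IFNγ the order was not kept. The set had a peak in 88.2 ± 9.27% of cases in WT and 89.6 ± 0.254% in KO (SD, n = 2 each), a difference of -1.35 points (exact permutation p = 1, adjusted 1). The lead over the other regions differed by 0.423 points (exact permutation p = 1, adjusted 1). The IFNγ-treated WT libraries lay on either side of the KO libraries, at 81.7% in WT_4 and 94.8% in WT_5. Between IFNγ-treated and untreated libraries the set differed by 7.0 points, from 81.9 ± 7.14% to 88.9 ± 5.41% (n = 4 each, exact permutation p = 0.171, adjusted 0.583). The treated library was the higher one in each of the 4 clones, by 0.718 points in WT_4, 2.51 in WT_5, 12 in KO_C5 and 12.7 in KO_D2. With labels exchanged within each clone, as paired libraries, p was 0.125, the smallest that 4 pairs allow. The mean change was 10.8 points smaller in WT clones than in KO clones, and with 2 clones against 2 clones the exact permutation p was again 0.333. In the other regions the mean was 59.5% untreated and 72.5% treated, with changes of -3.02 points in WT_4, 9.78 in WT_5, 26.3 in KO_C5 and 18.8 in KO_D2. Treated lists held 18913 and 37533 peaks in WT_4 and WT_5 and 27457 and 24727 in KO_C5 and KO_D2, so the lists of both KO clones were longer with IFNγ. With lists of equal length the mean difference with IFNγ was 2.44 points (exact permutation p = 0.143), and the changes were 3.40 points in WT_4, 1.27 in WT_5, 4.25 in KO_C5 and 0.849 in KO_D2. The WT mean change was then -0.212 points from the KO mean change, so the gap between the genotypes was not seen at equal length.

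Without IFNγ, 22 regions of the set (3.95%) had a peak in both WT clones and in neither KO clone, which compares with 4.02% of all 31829 regions. The reverse, a peak in both KO clones and in neither WT clone, was found in 0 of 557 against 0.283% of all regions. After IFNγ these numbers were 9 (1.62%) against 1.88% for WT and 0 against 1.28% for KO. Over all 8 libraries 3 regions (0.539%) had a peak in each of the 4 WT libraries and none in the 4 KO libraries, against 0.336%, and 0 in the reverse, against 0.0189%. The shares of the set were close to those of all regions, apart from the KO-only calls after IFNγ. Those were mostly short regions, 2.34% of the other regions under 500 bp but 0.446% from 500 to under 1000 bp and 0.0821% from 1000 bp on, and 66 of the 557 regions of the set were that short. The part of length in this was not tested. When the lists were shortened to equal length, 1 of 471 regions (0.212%) was WT-only without IFNγ, against 1.41% of all regions, and it overlapped a region of the 22. Of the 471, 2 (0.425%) were then KO-only, against 0.966%.

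These 3 regions were those of BCAR1, ENSG00000285526 and NMNAT3. BCAR1 encodes an adaptor protein of focal adhesions, and its region, at chr16:75233551-75235224, lies 1279 bp from the nearest start site and overlaps an exon. NMNAT3 encodes an enzyme of NAD synthesis, and its region at chr3:139677531-139678181 contains a start site. The region of ENSG00000285526, at chr19:35109694-35110085, is intronic. Their copies are shown to make plain that none of the 3 carries a telomere-like array: each hexamer stands alone.
BCAR1 intron: tgttggagacatTTAGGGaattagagagtg
BCAR1 intron: gggctcctgtgcTTAGGGggagatttgttc
BCAR1 exon: tgggaggtgaacTTAGGGggtgagggcagg
ENSG00000285526 left: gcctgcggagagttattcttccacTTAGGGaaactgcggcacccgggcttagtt
ENSG00000285526 right: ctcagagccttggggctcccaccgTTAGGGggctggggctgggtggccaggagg
NMNAT3 intron: cccaggactcagTTAGGGgccaggagtcac
NMNAT3 UTR: ggccgggtctccTTAGGGcccgccccagcg

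The windows are chr16:75233614-75233643 (minus strand), chr16:75234816-75234845 (minus), chr16:75234962-75234991 (plus), chr19:35109677-35109730 (minus), chr19:35110032-35110085 (plus), chr3:139677608-139677637 (plus) and chr3:139678002-139678031 (minus). BCAR1 was at the 41.9 and 39.4 percentile in untreated WT_4 and WT_5 and at 24.4 and 51.0 after IFNγ. ENSG00000285526 was at 17.0 and 42.9 untreated and at 14.4 and 54.8 after IFNγ. NMNAT3 was at 30.3 and 18.9 untreated and at 20.8 and 28.5 after IFNγ. Only BCAR1 and ENSG00000285526 in treated WT_5 were above the middle of a list. At their summits BCAR1 had 11 to 20 fragments, ENSG00000285526 had 9 to 23 and NMNAT3 had 10 to 12, in WT libraries whose local background was 0.62 to 1.32 fragments at these 3 regions. In the set as a whole the local background under the peaks open in all 8 libraries had medians of 1.03 to 1.77 fragments in the 4 WT libraries and 2.04 to 3.47 in the 4 KO libraries. Its part in the WT-only calls was not tested.

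Among the 22 WT-only regions without IFNγ, the 4 with the highest mean percentile over all libraries that had a peak, treated ones included, were those of PTGR1, a reductase of prostaglandin breakdown, SYT5, RAET1G, a ligand of the natural killer cell receptor NKG2D, and ENSG00000273473. This choice favours regions with strong peaks after IFNγ, so their treated values are a description. In untreated WT_4 BCAR1, given above, ranked higher than PTGR1, SYT5 and RAET1G. PTGR1 was at 14.7 and 61.4 in untreated WT_4 and WT_5, had no peak in treated WT_4, and was at 71.0 in treated WT_5, 59.4 in treated KO_C5 and 53.2 in treated KO_D2. SYT5 was at 12.9 and 59.8 in untreated WT, 28.3 and 66.9 in treated WT and 49.6 and 57.4 in treated KO. RAET1G was at 1.4 and 56.7 in untreated WT, 70.5 in treated WT_5 and 53.6 in treated KO_C5. In these 3 the untreated WT_4 peak was at the 14.7 percentile or below. ENSG00000273473 was at 49.7 and 43.6 in untreated WT, 49.1 in treated WT_5 and 35.2 and 38.6 in treated KO.

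After IFNγ the 4 WT-only regions chosen in the same way were those of SYT3, BCAR1, KMT5C, a histone methyltransferase gene, and ENSG00000285526. SYT3, another synaptotagmin gene, was at 39.2 and 56.2 in untreated WT, 24.0 in untreated KO_C5 and 38.9 and 58.1 in treated WT. KMT5C had no peak in any untreated library and was at 17.1 and 49.4 in treated WT_4 and WT_5. BCAR1 and ENSG00000285526 were thus the only ones of these 8 that were WT-only in both conditions.

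For the 366 regions of the set that were open in all 8 libraries, strength could be compared directly. Their median percentile was 77.5 and 83.7 in untreated WT_4 and WT_5 and 71.6 and 72.6 in untreated KO_C5 and KO_D2, a difference of 8.51 points with no overlap (exact permutation p = 0.333, adjusted 0.583). With lists of equal length the medians were 73.9 and 74.4 in WT and 71.0 and 74.8 in KO, which overlapped, and the difference was 1.28 points (exact permutation p = 1). After IFNγ it was 73.2 and 87.2 in WT and 81.9 and 80.7 in KO, a difference of -1.07 points (exact permutation p = 1, adjusted 1). The percentile depends on how many weak peaks a list holds, and the other regions open in all 8 libraries differed by 9.24 points without IFNγ. By fold enrichment over local background in place of the percentile, WT was higher in both conditions, by 14.3 in the median fold without IFNγ and by 10.5 after it (exact permutation p = 0.333 and 0.667). The local background, given above, was higher in the KO libraries, and its part in this was not tested.

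Every WT library was above every KO library in 26 of these 366 regions (7.1%), against 7.13% of the 11551 regions open in all 8 libraries, and every KO library was above every WT library in 1, against 0.286%. Both shares were near those of all such regions. The 4 widest gaps towards WT were those of the lncRNA ENSG00000267388, with a mean difference of 27.4 points, the lncRNA ENSG00000272953 (26.3), VEGFC (20.8), a growth factor of lymphatic vessels, and ARID2 (19.8), a subunit of the PBAF chromatin remodelling complex. ENSG00000267388 was at 48.6, 54.7, 43.1 and 67.9 in the 4 WT libraries and at 24.6, 10.8, 31.1 and 38.1 in the 4 KO libraries. Each KO library had more local background at this region (1.88 fragments or more) than any WT library (1.15 or less). The heights of its summits overlapped between the genotypes, from 15 up to 29 in KO against 19 up to 38 in WT. VEGFC was at 46.2, 45.3, 52.1 and 60.4 in WT and at 30.3, 28.4, 28.9 and 33.3 in KO. At VEGFC the WT libraries had a local background of 0.91 to 1.46 fragments and summits of 22 to 31, and the KO libraries 0.84 to 1.60 and 16 to 20.

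At ENSG00000272953, in contrast to VEGFC, the WT libraries had a local background of 1.39 to 2.21 fragments and summits of 31 to 39. The KO libraries had 5.78 to 12.5 and 24 to 73. Its percentile was 55.7, 59.5, 57.0 and 57.5 in WT and 9.2, 31.2, 29.1 and 54.9 in KO. ARID2 was at 68.6, 78.9, 60.3 and 75.2 in WT and at 55.2, 39.9, 60.3 and 48.6 in KO, so that the lowest WT and the highest KO library were level to the first decimal. At ARID2 too, each KO library had more local background (2.28 fragments or above) than any WT library (2.21 or below). Its summits overlapped in height, from 31 up to 55 in KO against 40 up to 74 in WT. The part of local background in these gaps was not tested. The 1 region with the opposite order was the pseudogene FAM86GP, at 84.5, 83.4, 84.8 and 88.6 in WT and 88.9, 94.0, 94.6 and 90.1 in KO. The WT libraries had 1.01 to 1.77 fragments of local background there and the KO libraries 1.06 to 1.87. In the other 10 FAM86 regions the genotypes overlapped.

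**Figure D5:**
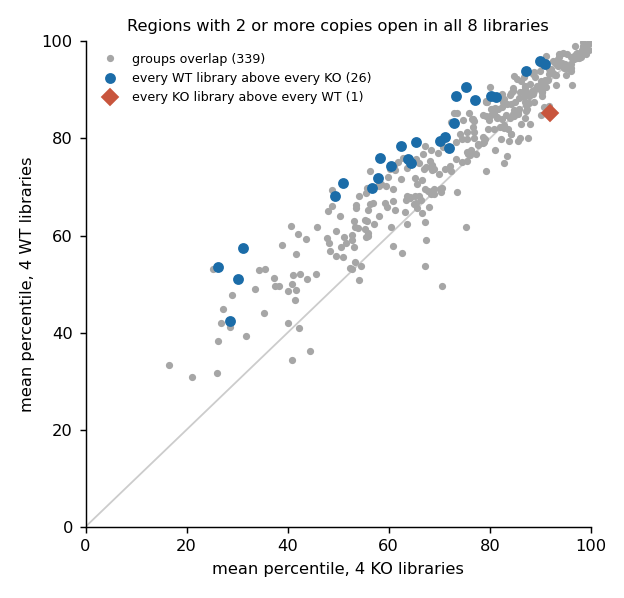
Mean percentile of −log10 p over the 4 WT libraries (vertical) against the mean over the 4 KO libraries (horizontal) for the 366 regions with 2 or more copies that were open in all 8 libraries; the line marks equality. Blue circles are the 26 regions in which every WT library lay above every KO library, the red diamond is FAM86GP, and grey circles are those whose groups overlapped.

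Tandem and scattered regions were also set side by side by genotype. The tandem regions had a peak in 85.7% of cases in untreated WT and 57.1% in untreated KO libraries, and the scattered ones in 86.6% and 77.5%. After IFNγ the values were 85.7% and 78.6% for tandem and 88.3% and 89.7% for scattered regions. By number of regions, 6 and 6 of the 7 tandem regions had a peak in untreated WT_4 and WT_5, 4 and 4 in untreated KO_C5 and KO_D2, 6 and 6 in treated WT and 5 and 6 in treated KO. The gap without IFNγ thus rests on INTS1 and ENSG00000290065, the weak peaks described above. Over the set, the overlap of open regions was as high between genotypes (mean Jaccard index 0.833, 0.766 to 0.914) as between the libraries of different clones of 1 genotype (0.819, 0.787 to 0.890), and it was 0.858 between the untreated and treated libraries of 1 clone.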

How the data were processed

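FAIRE-seq peaks of 8 U2OS libraries, 2 clones per genotype and treatment, were analysed from the peak lists deposited by the authors, 1 list per library. Per the labels and the study's methods, reads were trimmed with Trimmomatic, aligned to GRCh38 with Bowtie2 2.2.5, freed of low mapping quality reads with SAMtools 1.14, and peaks were called per library with MACS2 2.2.7.1. The control used for peak calling and the treatment of duplicate reads are not given in the sources used here. For each peak the authors deposited the fold enrichment of the summit over local background (a ratio), −log10 p and −log10 q values, and a whole-number score derived from q that was used in no result. The lowest −log10 q was 1.30. The lists held 16730 to 37533 peaks. Read totals were not used here, so depth was judged by list length and by the height of the summit in fragments, which was solved from the fold and −log10 p of each peak together with its local background.

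Peaks on chromosomes 1 to 22 and X were joined at 1 bp of overlap with Python 3.11.15, and the sequence of each region was read from GRCh38 with pysam 0.24.0. Start sites and features came from GENCODE 44, with promoters defined as within 1 kb of a start site. Families of like sequence were found with blastn 2.17.0 at 80% identity over 200 bp. Strength was the percentile of −log10 p within the library's own list. Shares and median percentiles were compared over libraries with exact two-sided permutation tests, 7 in all, with Benjamini-Hochberg adjustment. The smallest possible p was 0.333 for 2 against 2 libraries and 0.0286 for 4 against 4, so no comparison of genotypes could pass 0.05. In the comparisons of genotypes the p-values measure the spread between clones. The test of IFNγ over all libraries takes the 2 libraries of a clone as independent, so it mixes that spread with the change within clones. The paired p for IFNγ is given beside it in the results. Untreated and IFNγ-treated libraries of the same number come from the same clone per the labels, and the numbers of WT and KO clones are only names. Regions that were WT-only (a peak in every WT and no KO library named) or KO-only were counted with no test.

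The members, gene lists and tests were chosen with earlier results of these data known. Regions named were all tandem ones, the 10 with most copies (ties broken by mean percentile), the 4 WT-only or KO-only ones of highest mean percentile in each condition and those WT-only or KO-only in all libraries, the 4 widest gaps without overlap in each direction, and those within 1 kb of a start site of a listed gene. DDX11L2, ENSG00000270779, FAM86C2P and IFI30 were chosen after their values or sequences were seen. Hexamer search, permutation tests and summit heights were tested on simulated data, where all 500 regions, 50 comparisons and 2000 peaks were recovered. The simulated peaks did not include summits as low as those of the weakest regions named, nor local backgrounds as high as the highest one given. Recovery was thus not shown for those. Joining was tested on the real peaks, where it gave the same 52105 regions as bedtools 2.31.1. Alternatives tried were another overlap, a stricter q value, summit windows, lists of equal length, 3 or more copies, fold in place of the percentile, the replicate block, each library left out, and 1 region per family, the last chosen after seeing the data.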

Additional observations from a re-analysis of the deposited data

Results flagged for a closer look

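In 5 named regions the percentile of −log10 p was lower with IFNγ in both WT clones and higher with IFNγ in both KO clones. The difference between the genotypes was not tested for single regions. ARID2 changed by -8.3 and -3.7 points in WT_4 and WT_5 and by 5.1 and 8.7 in KO_C5 and KO_D2, a mean difference of -12.9 points. EEF2KMT changed by -1.8 and -2.6 against 26.5 and 2.5, a difference of -16.7. RSPRY1, a tandem region, changed by -2.5 and -0.3 against 34.8 and 12.9, a difference of -25.25. LINC02614 changed by -10.6 and -2.2 against 8.8 and 2.2, a difference of -11.9. FAM86EP changed by -8.1 and -1.4 against 12.7 and 6.9, a difference of -14.55. EEF2KMT, LINC02614 and FAM86EP share the FAM86 sequence and are not independent of each other. The peak lists moved with this, from 19255 to 27457 peaks in KO_C5 and from 16730 to 24727 in KO_D2, so the changes were taken again with lists of equal length. There LINC02614 (-10.8 and -7.56 against 4.91 and 1.24) and FAM86EP (-5.47 and -8.57 against 9.24 and 1.75) still had opposite signs in the genotypes. ARID2 did not, at -4.13 and -18.3 against -13.6 and -15.9, nor did EEF2KMT, at 1.25 and -9.64 against 25.6 and 0.359, or RSPRY1, at 1.73 and -1.44 against 37.7 and 11.7. Over the 366 regions open in all 8 libraries the median percentile changed by -4.30 points in WT_4, 3.59 in WT_5, 10.3 in KO_C5 and 8.13 in KO_D2, and the mean change differed by -9.58 points between the genotypes (exact permutation p = 0.333, the smallest that 2 against 2 clones allow). At equal length that difference was -1.39 points.

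Of 704 peaks outside chromosomes 1 to 22 and X, 379 lay on sequences of the reference, and the count below does not cover the others. Among the regions that could be searched there, 1 with peaks in 2 or more libraries carried the hexamer repeatedly. It covers the mitochondrial genome, was open in all 8 libraries and held 22 copies, none adjacent to another.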

How the results depend on the processing

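Of 249 values from 17 results under 16 alternatives, 194 were classed as unchanged (for counts, within 1.5 times), 52 as moved and 3 as reversed. The classes miss some changes of sign when a library was left out. Without treated WT_4 the WT minus KO share after IFNγ was 4.76 points against -1.35, and the lead over other regions was -12.4 against 0.423. Both were classed as unchanged. The rank difference after IFNγ was then 6.01 against -1.07 and was classed as moved. The causes were not tested. With lists of equal length, the WT minus KO share after IFNγ was 0.637 points, the untreated lead differed by -1.93, the untreated rank by 1.28 and the IFNγ difference was 2.44. WT-only regions numbered 1 untreated, 3 after IFNγ and 0 over all libraries (1.41%, 1.57% and 0.126% of all regions), KO-only regions 2 and 2 (0.966% and 1.88% of all regions), and 6 regions ranked higher in every WT library and 6 in every KO library. In windows of 150 bp around summits, by construction smaller, there were 189 regions, 3 of them tandem, the lead over other regions differed by -0.616 points untreated and -3.00 after IFNγ, the IFNγ difference was 15.6, WT-only regions numbered 7, 3 and 0, KO-only regions 1 and 1, and 2 ranked higher in every WT library. With 3 or more copies there were 80 regions, 1 of them tandem. WT-only regions numbered 3, 1 and 1 (4.02%, 1.88% and 0.336% of all regions). In every WT library 5 ranked higher (7.13% of all regions open in all 8). By fold the rank difference after IFNγ was 10.5, and 100 regions were higher in every WT library and 0 in every KO library. For fold, for the summit windows and for the equal-length rank counts, shares over all regions were not taken. Those counts cannot be read as a trait of the set.

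Leaving out each library in turn gave 469 to 555 regions and 5 to 7 tandem ones. The WT minus KO share was 2.91 (without untreated WT_5) to 14.8 (without untreated WT_4) points untreated and -7.89 to 4.76 after IFNγ, the lead over other regions -15.7 to -2.40 and -12.4 to 13.0, and the IFNγ difference 4.14 to 10.2. WT-only regions were 19 to 48 untreated (48 without untreated WT_4), 7 to 19 after IFNγ and 1 to 6 over all libraries, KO-only regions 0 to 8, 0 to 42 (42 without treated WT_5) and 0. The rank difference was 4.99 to 12.2 untreated and -8.36 to 6.01 after IFNγ, with 23 to 49 regions higher in every WT and 1 to 4 in every KO library. With a library left out, shares over all regions were not taken, so these counts cannot be read as a trait of the set. The replicate block left values as they were, 9.43 and -8.02 untreated, -1.35 and 0.423 after IFNγ, 7.0 for IFNγ, and 8.51 and -1.07 for rank, and changed no call. With 1 region per family, an alternative chosen after seeing the data, 529 regions were left and no call changed.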

Other observations

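Promoter windows were also searched without reference to peaks. Of 34961 RefSeq promoters (GRCh38) of 300 bases, 3165 (9.05%) held 1 or more copies of TTAGGG on either strand and 191 (0.546%) held 2 or more, against 411 (1.18%) for GTGAGT. A tandem pair was found in 2 of them, RANGRF and MANEAL, and 68 of the 191 overlapped a region described above.

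IFI30, an interferon-inducible thiol reductase that prepares antigens for MHC class II, was singled out after its values were seen. Its promoter region held 2 copies and was at the 42.9 and 59.4 percentile in untreated WT_4 and WT_5, 23.2 in untreated KO_C5 with no peak in KO_D2, 59.1 and 65.1 in the treated WT clones and 30.1 and 50 in the treated KO clones. Within each condition the WT libraries were above the KO libraries, and across conditions the genotypes overlapped.

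Among promoters, zinc finger (ZNF) genes made up 14 (3.16%) of those in the set and 2.69% of the others. Histone genes made up 3 (0.677%) and 0.179%, and the 3 belong to 1 family of like sequence.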
